A study of Rattus norvegicus with 19 samples.

Results

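The 9 genes described here, Pdk4, Angptl4, Ucp2, Ucp3, Acot1, Acot2, Cpt1a, Plin2 and Plin5, are PPAR-responsive genes of fatty acid handling together with 2 uncoupling proteins. They were taken as a list of symbols from the count files, which hold 17455 symbols. All 9 were in the files, and all 9 were among the 12388 genes that passed the filter on low counts. RNA from the left ventricle of Sprague-Dawley rats, 24 weeks old at the start, had been sequenced in 19 libraries of 7 groups. Control 5w (3 libraries) and control 9w (3 libraries) were rats without L-NAME and, per the study, on normal chow, taken at weeks 5 and 9. HFpEF (3 libraries) were rats taken at week 5 after a high-fat diet, 60% of its energy being lard, and L-NAME, an inhibitor of nitric oxide synthases, at 0.5 g/L of drinking water. This pair of stresses is used as a model of heart failure with preserved ejection fraction. The 4 other groups were induced in the same way, had daily gavage from week 5 and were taken at week 9. Untreated rats (3 libraries) were given PBS, EMPA rats (2 libraries) empagliflozin, an SGLT2 inhibitor, at 0.35 g/kg per day, and PFD rats (2 libraries) pirfenidone, an antifibrotic drug, at 0.3 g/kg per day. EMPA + PFD rats (3 libraries) had both drugs at these doses. Total counts per library ran from 7430539 to 13017754, with a median of 9951011, and values below are in CPM, counts scaled to a common library size.

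Heart muscle takes most of its energy from fatty acids, and PPAR-alpha is a nuclear receptor that binds fatty acids and switches on the genes for using them. Several of its targets respond quickly to fasting, exercise and a rise in circulating fatty acids: a kinase that closes the entry of pyruvate into the mitochondrion's oxidation, a secreted inhibitor of lipoprotein lipase, thioesterases that free fatty acids from coenzyme A, and proteins that coat lipid droplets. Uncoupling proteins of the inner mitochondrial membrane respond to the same signals, and some of these genes also respond to glucocorticoids and to the time of day.

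The libraries differed in ways that their group names do not give, and these come first because the results rest on them. The labels give every rat as male, while the labels' protocol speaks of equal numbers of males and females. Counts of the Y-linked genes Eif2s3y and Ddx3 were 0 in 7 libraries, namely the 2 of PFD, the 3 of untreated, and replicates 1 and 3 of HFpEF. In the other 12 libraries Eif2s3y had 613 to 1321 counts and Ddx3 had 855 to 1468. The transcript LOC100911498 ran the opposite way, with 13032 to 27077 counts in those 7 libraries and 1 to 12 in the other 12. Control 9w, EMPA and EMPA + PFD each therefore differed from untreated and from PFD in Y-linked transcripts as completely as in treatment or disease, and the 2 differences cannot be told apart. HFpEF alone holds both kinds of library, so a term for these transcripts in the fit is estimated from HFpEF replicate 2 against HFpEF replicates 1 and 3. That split has 1 library on 1 side, which is assumed to vary like the others. RT1-CE16, a class I histocompatibility gene, had 0 to 3 counts in control 5w, HFpEF and EMPA and 308 to 922 counts in control 9w, untreated, PFD and EMPA + PFD, so the 2 EMPA libraries stood apart from every other week 9 library in this gene.

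The labelled tissue was checked with marker genes. Of 12 cardiomyocyte markers 11 were in the files, all 11 had counts in every library, and the most abundant was Myh6, the alpha myosin heavy chain. Their summed level was 98990, 41750 and 46870 CPM in control 5w, 13400, 25230 and 38880 in HFpEF, 41380, 47970 and 45260 in control 9w, and 78120, 22820 and 63960 in untreated. It was 52380 and 41550 CPM in EMPA, 74960 and 82580 in PFD, and 80010, 113800 and 93720 in EMPA + PFD. The 3 HFpEF libraries and untreated replicate 2 were the lowest, and EMPA + PFD was above every untreated library. In bulk tissue, fewer cardiomyocytes and less RNA of these genes per cardiomyocyte cannot be told apart.

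Each of 9 atrial markers had counts in some library, with Nppa, the atrial natriuretic peptide, the most abundant. Their summed level was 3525, 6679 and 5138 CPM in control 5w, 2543, 412 and 2237 in HFpEF, 5402, 283 and 23780 in control 9w, and 209, 15130 and 599 in untreated. It was 895 and 5482 CPM in EMPA, 3198 and 249.9 in PFD, and 336, 796 and 402 in EMPA + PFD. Control 9w replicate 3 and untreated replicate 2 were far above the rest, and untreated replicate 2 joined this to the lowest cardiomyocyte sum of its group. All 10 fibroblast markers had counts, Col3a1 being the most abundant, and the sum was 4730 CPM in control 5w replicate 1 against 45920 and 37270 in replicates 2 and 3. It was 18090, 10230 and 13410 CPM in HFpEF and 2191 to 8932 CPM in the 13 libraries of week 9. So the control 5w group held 1 library with little fibroblast RNA and 2 with much.

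**Figure D1:**
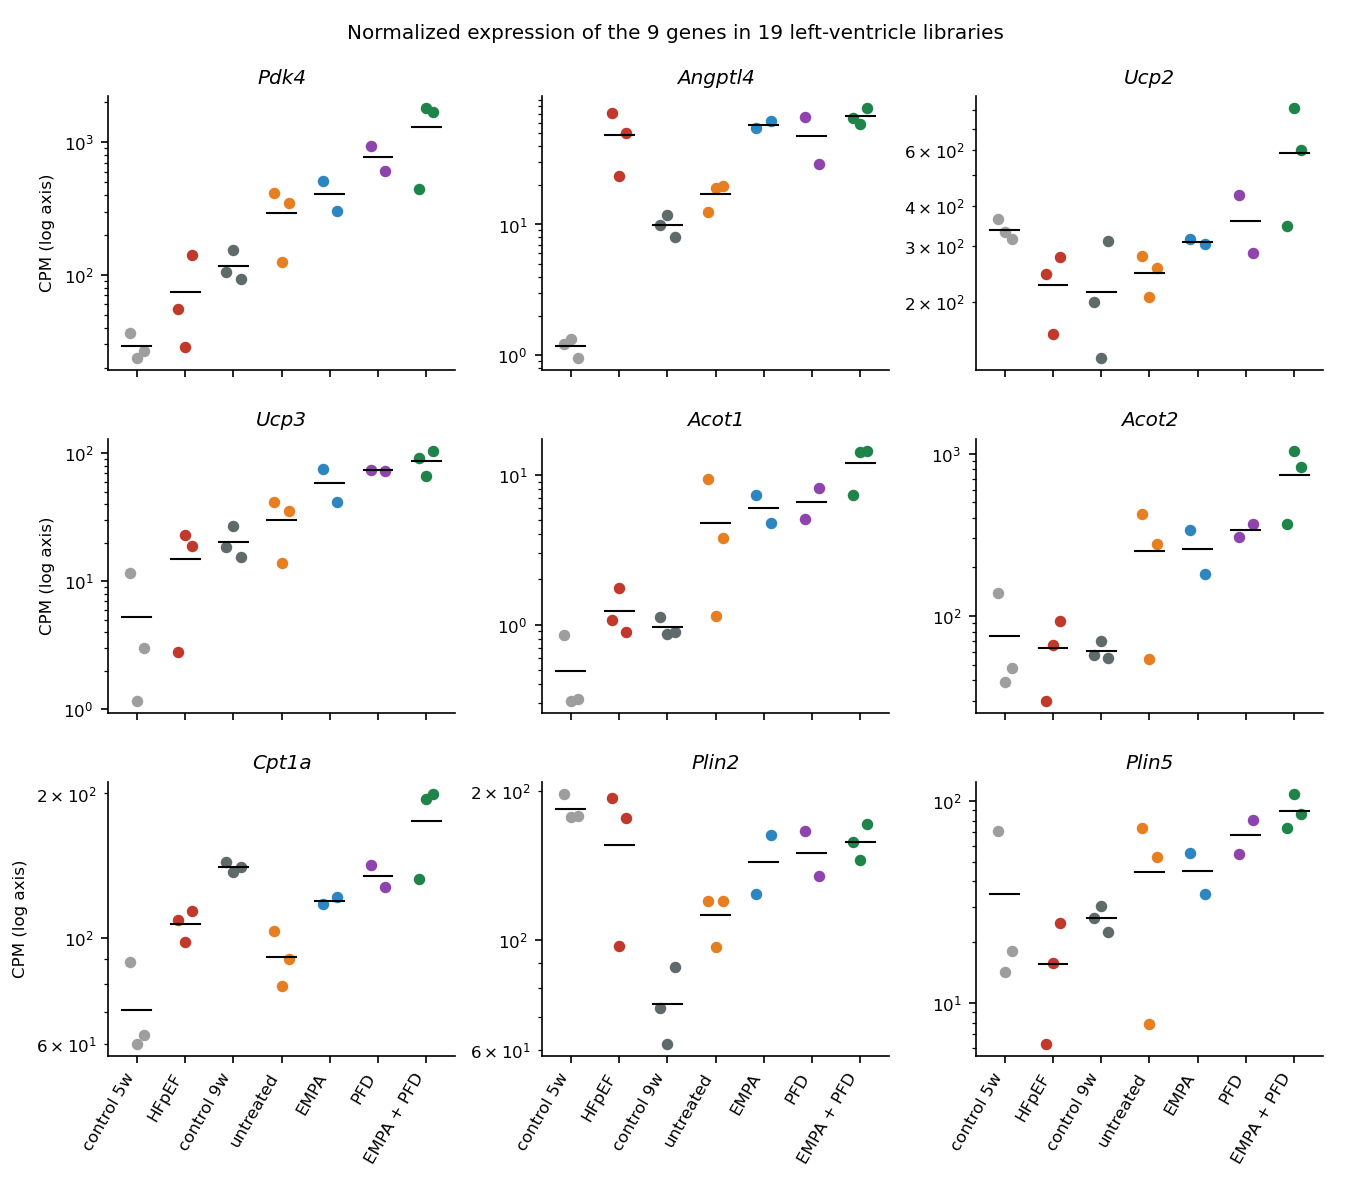
Normalized expression (CPM, log axis) of each gene in every library, by group; points are libraries and black bars are group means. EMPA + PFD had the highest mean of all groups for every gene except Plin2, which was highest in control 5w, and Angptl4 was lowest in control 5w at 0.955 to 1.32 CPM.

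Pdk4, a kinase that phosphorylates and so inactivates pyruvate dehydrogenase, showed a wide range, from 23.7 to 1791 CPM. It measured 36.3, 23.7 and 26.9 CPM in control 5w, 55.2, 28.5 and 140.0 in HFpEF, 105, 153 and 93.3 in control 9w, and 414, 124 and 346 in untreated. It measured 507 and 302 CPM in EMPA, 932 and 610 in PFD, and 443, 1791 and 1673 in EMPA + PFD. EMPA + PFD replicates 2 and 3 were the highest of all libraries, while replicate 1 lay between the 2 EMPA libraries and just above untreated. By group mean the order was EMPA + PFD, PFD, EMPA, untreated, control 9w, HFpEF and control 5w. Only PFD and EMPA had libraries apart from each other in that order, and every other neighbouring pair overlapped.

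Angptl4, a secreted inhibitor of lipoprotein lipase, was lowest in control 5w, with 12 counts in its lowest library. It measured 1.23, 1.32 and 0.955 CPM in control 5w, 71.3, 23.7 and 49.8 in HFpEF, 9.93, 11.8 and 7.98 in control 9w, and 12.5, 19.2 and 19.8 in untreated. It measured 54.5 and 61.6 CPM in EMPA, 66.2 and 29.1 in PFD, and 65.2, 59.2 and 77.2 in EMPA + PFD. Every HFpEF library was above every library of control 5w, control 9w and untreated, and every drug-treated library was above every untreated one. The order was EMPA + PFD, EMPA, HFpEF, PFD, untreated, control 9w and control 5w. EMPA + PFD, EMPA and HFpEF each overlapped with the next group, and PFD, untreated and control 9w were each apart from the next.

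Ucp2 encodes an uncoupling protein found in many tissues, an inner-membrane carrier of the SLC25 family. It measured 364, 332 and 316 CPM in control 5w, 245, 159 and 276 in HFpEF, 199.9, 134 and 312 in control 9w, and 280, 208 and 256 in untreated. It measured 316 and 304 CPM in EMPA, 435 and 285 in PFD, and 347, 811 and 600 in EMPA + PFD. The spread was narrow apart from EMPA + PFD replicates 2 and 3, which were above every other library, and control 5w lay above HFpEF with no overlap. Control 5w and EMPA were apart from the next group in the order EMPA + PFD, PFD, control 5w, EMPA, untreated, HFpEF and control 9w, and the other neighbours overlapped.

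Ucp3 encodes the uncoupling protein of striated muscle and brown fat and lies next to Ucp2 on the chromosome. It measured 11.6, 1.16 and 3.02 CPM in control 5w, 2.80, 23.0 and 18.9 in HFpEF, 18.4, 27.1 and 15.5 in control 9w, and 41.8, 14.0 and 35.4 in untreated. It measured 75.8 and 41.4 CPM in EMPA, 73.8 and 73.3 in PFD, and 92.2, 66.4 and 104 in EMPA + PFD. Levels were low at week 5 with 1 library of each group standing apart, control 5w replicate 1 high and HFpEF replicate 1 low, and both PFD and EMPA + PFD lay above untreated without overlap. In the order EMPA + PFD, PFD, EMPA, untreated, control 9w, HFpEF and control 5w all neighbours overlapped.

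Acot1 and Acot2 encode the cytosolic and the mitochondrial form of a long-chain acyl-CoA thioesterase. They are near-identical neighbours, so how reads were shared between them by the counting is uncertain, and Acot1 rested on 4 to 137 counts per library. Acot2 measured 138, 39.3 and 47.9 CPM in control 5w, 30.0, 66.3 and 92.8 in HFpEF, 57.4, 70.4 and 55.2 in control 9w, and 423, 53.9 and 278 in untreated. It measured 338 and 181 CPM in EMPA, 305 and 371 in PFD, and 369, 1033 and 825 in EMPA + PFD. Untreated was split, with replicates 1 and 3 well above every control 9w library and replicate 2, the library with the high atrial sum, below all of them. Acot1 measured 0.848, 0.310 and 0.318 CPM in control 5w, 1.08, 1.74 and 0.893 in HFpEF, 1.13, 0.861 and 0.897 in control 9w, and 9.39, 1.14 and 3.79 in untreated. It measured 7.32 and 4.74 CPM in EMPA, 5.04 and 8.13 in PFD, and 7.33, 14.1 and 14.3 in EMPA + PFD. Acot1 had untreated replicate 2 close to control 9w as well, and its 2 highest libraries were again EMPA + PFD replicates 2 and 3. Both genes had the order EMPA + PFD, PFD, EMPA and untreated at the top, with all of these overlapping their neighbours. Below them Acot1 had HFpEF, control 9w and control 5w, the last 2 apart, and Acot2 had control 5w, HFpEF and control 9w, all overlapping.

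Cpt1a encodes carnitine palmitoyltransferase of the outer mitochondrial membrane, which commits long-chain fatty acids to import, and is the form less specific to muscle than Cpt1b. It measured 88.8, 60.1 and 62.5 CPM in control 5w, 109, 97.9 and 114 in HFpEF, 144, 137 and 140.3 in control 9w, and 103, 79.2 and 90.1 in untreated. It measured 118 and 121 CPM in EMPA, 142 and 128 in PFD, and 132, 195 and 199 in EMPA + PFD. Control 9w was tight and above HFpEF, control 5w and untreated without overlap, and untreated was below each of the 3 drug groups without overlap. In the order EMPA + PFD, control 9w, PFD, EMPA, HFpEF, untreated and control 5w, PFD was apart from EMPA and EMPA from HFpEF, and the other neighbours overlapped.

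Plin2 and Plin5 encode perilipins, coat proteins of lipid droplets, Plin5 being the form typical of oxidative tissue, where it also ties droplets to mitochondria. Plin2 measured 197, 177 and 178 CPM in control 5w, 193, 97.5 and 176 in HFpEF, 73.1, 61.9 and 88.2 in control 9w, and 119.7, 96.9 and 119.9 in untreated. It measured 124 and 163 CPM in EMPA, 166 and 134 in PFD, and 157, 145 and 171 in EMPA + PFD. Control 9w was below every other library, and control 5w was above every library of the other groups except HFpEF replicate 1. Plin5 measured 71.2, 14.3 and 18.1 CPM in control 5w, 6.32, 15.9 and 24.9 in HFpEF, 26.3, 30.4 and 22.5 in control 9w, and 73.2, 7.88 and 52.9 in untreated. It measured 55.0 and 34.7 CPM in EMPA, 54.9 and 80.6 in PFD, and 73.7, 108 and 86.0 in EMPA + PFD. Plin5 was high in control 5w replicate 1 and untreated replicates 1 and 3 and low in HFpEF replicate 1 and untreated replicate 2, which are also the libraries high and low in the cardiomyocyte sum of their groups, and the part of that sum in the Plin5 values was not tested. The order for Plin5 was EMPA + PFD, PFD, EMPA, untreated, control 5w, control 9w and HFpEF, all neighbours overlapping. The order for Plin2 was control 5w, EMPA + PFD, HFpEF, PFD, EMPA, untreated and control 9w, with control 5w, EMPA and untreated apart from the next group.

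The first comparison asks what the induction did by week 5. Of the 9 genes 1, Angptl4, passed the test in HFpEF against control 5w, where 8.69% of all tested genes passed. Angptl4 rose from a mean of 1.17 CPM (SD 0.189, n = 3) to 48.3 CPM (SD 23.9, n = 3), a log2 fold change of 5.36 (SE 0.44) or 41.1-fold, with adjusted p = 5.04e-05 by the quasi-likelihood test of edgeR, adjusted after Benjamini and Hochberg over 12388 genes. A gene counted as passing at an adjusted p under 0.05 and a change of at least 2-fold. These p-values measure how a difference between groups stands against the spread among libraries of 1 group, and say nothing of which of the things that differ between the groups set it. Cpt1a had an adjusted p of 0.0233 in edgeR's test with a log2 fold change of 0.60 (SE 0.17), under the fold threshold, and all 3 HFpEF libraries above all 3 controls. Pdk4 had 1.36 (SE 0.59) with adjusted p = 0.111 and Ucp3 1.52 (SE 0.72) with adjusted p = 0.146, each with 2 of 3 HFpEF libraries above the controls. By voom, which called 3 of the 9, Pdk4 had 1.97 (adjusted p = 0.00054) and Ucp3 2.61 (adjusted p = 0.0017). Leaving out 1 library gave 0.53 to 1.75 for Pdk4 and 1.03 to 2.825 for Ucp3. Plin5 had −1.14 (SE 0.69) with adjusted p = 0.249. It ran from −1.64 to −0.05 when 1 library was left out, and was 0.18 by voom. The median log2 fold change of the 9 genes was 0.60, against 0.02 over all genes tested. With the term for Y-linked transcripts, which sets HFpEF replicate 2 alone against the controls, the value of Pdk4 was −0.02. Without control 5w replicate 1, or without HFpEF replicate 1, 2 of the 9 passed.

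Markers of other cell types were set beside Angptl4. All 11 adipocyte markers had a count in some library, and the most abundant was Fabp4, a fatty acid carrier that endothelial cells also make, at 541 to 3652 CPM. Of the other 10, Cidea reached 201 CPM, Cfd 55.3, Pck1 5.59, Adipoq 2.52, Plin1 1.71, Lep 1.06, Cidec 0.974, Adrb3 0.799, Ucp1 0.627 and Retn 0.598 CPM in their highest library. The adipocyte sum was 1033, 592.5 and 673 CPM in control 5w and 732, 3062 and 2046 CPM in HFpEF. All 12 macrophage and monocyte markers had counts in every library, with Lyz2, a lysozyme, the most abundant, and their sum was 843, 2494 and 2034 CPM in control 5w and 3659, 836 and 2150.0 CPM in HFpEF. All 10 endothelial markers had counts in every library as well, with Vwf, the von Willebrand factor, the most abundant, and their sum was 2277, 1805 and 2082 CPM in control 5w and 2104, 4417 and 3658 CPM in HFpEF. The 10 skeletal muscle markers all had a count in some library, with Acta1, an actin that heart muscle also makes, the most abundant, and summed to 6732, 4531 and 4211 CPM in control 5w and 1364, 900.4 and 2381 CPM in HFpEF. Of 6 mesothelial markers 4 were in the files and had counts, with Wt1 the most abundant, and their sum was 55.9, 29.3 and 39.8 CPM in control 5w and 70.6, 119.6 and 128 CPM in HFpEF. The cardiomyocyte, atrial, skeletal muscle and mesothelial sums of the 2 groups did not overlap, and the part of these cell types in the Angptl4 values was not tested. The log2 fold change of Angptl4 in this comparison ran from 4.33 to 5.69 over 29 alternatives, left-out libraries included, and passed in all 29.

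Hearts of control rats were themselves compared between weeks 9 and 5. Here 4 of the 9 genes passed, where 14.7% of all genes did. Angptl4 rose by a log2 fold change of 3.07 (SE 0.44, adjusted p = 0.000336), Pdk4 by 2.02 (SE 0.60, adjusted p = 0.0184) and Ucp3 by 1.97 (SE 0.73, adjusted p = 0.0477). Plin2 fell by 1.30 on the log2 scale (SE 0.22, adjusted p = 0.000705), from a mean of 184 CPM (SD 11.2, n = 3) to 74.4 CPM (SD 13.2, n = 3). Cpt1a reached 1.00 (SE 0.17, adjusted p = 0.000839) and fell just short of the fold threshold. All 3 libraries of control 9w lay beyond all 3 of control 5w for each of these 5 genes, and the share of all genes tested that did so was not counted. The call of Ucp3 was close to the threshold and was kept in 10 of 29 alternatives; among left-out libraries it was kept only without control 5w replicate 1, HFpEF replicate 1 or 2 or untreated replicate 2. Pdk4 lost its call without control 5w replicate 2 (adjusted p = 0.0672), without control 5w replicate 3 (0.0604) or without control 9w replicate 2 (0.0669), over a range of 3.27e-06 to 0.0672 in its alternatives. Without control 5w replicate 2 or 3 the count was 2 of 9. Marker sums differed between these groups too. In control 9w the endothelial sum was 4883, 5203 and 4174 CPM, the adipocyte sum 2716, 3713 and 1501 and the mesothelial sum 139.9, 195 and 107, each above the control 5w values without overlap. The macrophage and monocyte sum was 526, 428 and 588 CPM and the skeletal muscle sum 1245, 1331 and 1458, each below. Of 10 lymphocyte markers 9 were in the files and had counts, with Cd4 the most abundant, and their sum was 65.9, 112 and 99.5 CPM in control 5w and 39.7, 27.6 and 39.1 CPM in control 9w. Of 7 liver markers 6 had a count in some library and Ahsg had 0 in all, with Ttr, transthyretin, the most abundant, and the sum was 9.89, 14.5 and 14.1 CPM in control 5w and 15.1, 21.5 and 23.0 CPM in control 9w. The part of these lists in the members' values was not tested.

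Untreated disease at week 9 was compared with controls of that week. Of the 9 genes 0 passed in edgeR's test, where 0.912% of all genes did, while 6 had an unadjusted p under 0.05, and DESeq2 called 2 and limma's voom 3. Of all 12388 genes 2259 had an unadjusted p under 0.05 in edgeR's test. Over the alternatives all genes called ran from 2 to 1037. The thioesterases had the largest fold changes, with 2.28 (SE 0.62, adjusted p = 0.0699) for Acot1 and 2.04 (SE 0.66, adjusted p = 0.112) for Acot2 on the log2 scale. Pdk4 had 1.33 (SE 0.58, adjusted p = 0.243). Cpt1a went the other way, with −0.63 (SE 0.17, adjusted p = 0.0663) and all 3 untreated libraries below all 3 controls. Without untreated replicate 2 both thioesterases passed in edgeR's test, with 2.76 (adjusted p = 0.00976, range over alternatives 0.0018 to 0.349) for Acot1 and 2.52 (adjusted p = 0.0196, range 9.58e-05 to 0.511) for Acot2. The groups differ in Y-linked transcripts as well, and with the term for these transcripts, estimated within HFpEF with 1 library on 1 side, the log2 fold change of Pdk4 was −0.44 and that of Angptl4 −0.56, against 0.80 without it. All 8 smooth muscle and pericyte markers had counts in every library, with Pdgfrb the most abundant, and their sum was 1221, 1132 and 1100 CPM in control 9w and 1383, 1416 and 1615 CPM in untreated. Of 9 red cell markers 8 were in the files and had a count, with Hbb, a beta globin, the most abundant and Hba-a2 at 2 counts or fewer, and their sum was 1538, 1836 and 1182 CPM in control 9w and 234, 186 and 306 CPM in untreated. The lymphocyte sum was 81.9, 96.0 and 53.1 CPM in untreated, above control 9w, and the part of these 3 lists was not tested.

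The effect of disease differed between the weeks for 2 of the 9 genes, where 12.0% of all genes had a difference that passed. For Angptl4 the effect at week 9 minus that at week 5 was −4.56 on the log2 scale (SE 0.56, adjusted p = 0.000545 in edgeR's interaction test). For Cpt1a the difference was −1.23 (SE 0.24, adjusted p = 0.00463), the levels of HFpEF lying above control 5w and those of untreated below control 9w. Acot2 had a difference of 2.30 (SE 0.91, adjusted p = 0.0841), which did not pass in edgeR's test. It passed by DESeq2 with 2.31 (adjusted p = 0.0362) and by voom with 1.55 (0.0087). Without untreated replicate 2 it passed in edgeR's test with 2.775 (adjusted p = 0.0134, range over alternatives 0.0087 to 0.237). The calls of Angptl4 and Cpt1a held in all 29 alternatives, and without untreated replicate 2 the count was 4 of 9. In untreated against HFpEF, the diseased groups of the 2 weeks, 0 of 9 passed in edgeR's test, where 0.194% of all genes did, with 6 at an unadjusted p under 0.05, 4 called by DESeq2 and 6 by voom. Of all 12388 genes 2817 had an unadjusted p under 0.05 in edgeR's test. The 0.194% holds for that test, and over the alternatives all genes called ran from 1 to 1076. Pdk4 had 1.98 (SE 0.59, adjusted p = 0.101) and Angptl4 −1.49 (SE 0.35, adjusted p = 0.0662). Without untreated replicate 2, 5 of the 9 passed, Pdk4 among them with 2.35 (adjusted p = 0.0233, range over alternatives 0.00737 to 0.387), and without control 5w replicate 1 or HFpEF replicate 2 the count was 1. With the term for Y-linked transcripts, which sets untreated against HFpEF replicates 1 and 3 alone, Angptl4 had −1.82 (adjusted p = 0.0140, range over alternatives 0.00387 to 0.363). The fibroblast sum was 4079, 8932 and 3910 CPM in untreated against 18090, 10230 and 13410 CPM in HFpEF, and the red cell sum 234, 186 and 306 CPM against 1804, 1447 and 3973 CPM, both without overlap, and their part was not tested.

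**Figure D2:**
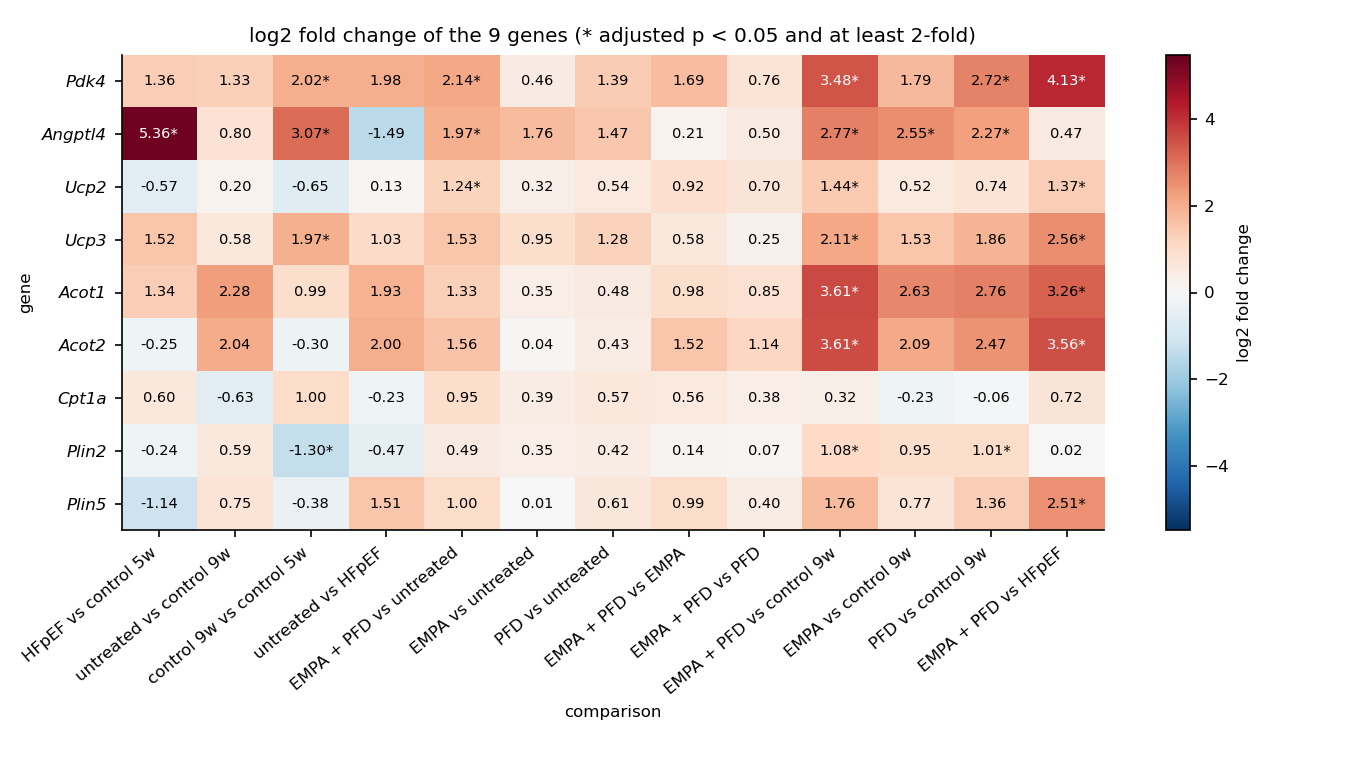
Log2 fold change of each gene (vertical axis) in each comparison (horizontal axis) from the fit of all 19 libraries, with an asterisk where the adjusted p was under 0.05 and the change at least 2-fold. Comparisons share groups and are not independent; the largest value is 5.36 for Angptl4 in HFpEF against control 5w.

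The combined treatment was compared with untreated disease. Of the 9 genes 3 passed, where 3.82% of all genes did, and all 9 had a log2 fold change above 0, as they also had in EMPA and in PFD against untreated and in EMPA + PFD against EMPA, PFD, control 9w and HFpEF. These comparisons share groups, and some values were near 0, as for Plin5 with 0.01 and Acot2 with 0.04 in EMPA against untreated. The share of all genes tested above 0 was not counted. Their median log2 fold change ran from −0.0858 in EMPA + PFD against HFpEF to 0.00683 in EMPA against untreated. Pdk4 rose from a mean of 295 CPM (SD 151, n = 3) to 1302 CPM (SD 746, n = 3), a log2 fold change of 2.14 (SE 0.60) with adjusted p = 0.0349. Angptl4 rose from 17.1 CPM (SD 4.08) to 67.2 CPM (SD 9.18), with 1.97 (SE 0.35) and adjusted p = 0.00834. Ucp2 rose from 248 CPM (SD 36.9) to 586 CPM (SD 232), with 1.24 (SE 0.32) and adjusted p = 0.0276. Cpt1a had the same adjusted p as Angptl4, 0.00834, at a log2 fold change of 0.95 (SE 0.17), just under the fold threshold. For these 4 genes all 3 EMPA + PFD libraries lay above all 3 untreated ones, and likewise for Ucp3, Plin2 and Plin5. How many of all genes tested were apart in this way was not counted, so this is no result about the members as a set. Ucp3 had 1.53, Acot2 1.56, Acot1 1.33, Plin5 1.00 and Plin2 0.49 on the log2 scale, with adjusted p-values from 0.105 to 0.305 in edgeR's test. The median of the 9 was 1.33, against −0.03 over all genes tested. The endothelial sum was 2739, 2452 and 2475 CPM in EMPA + PFD against 3772, 4240 and 4147 CPM in untreated, and the smooth muscle and pericyte sum 1080, 877 and 893 CPM against 1383, 1416 and 1615 CPM. The skeletal muscle sum was 4408, 2746 and 3924 CPM in EMPA + PFD against 2113, 593 and 2181 CPM in untreated. These 3 sums and that of the cardiomyocyte markers did not overlap between the groups, and their part in the members' values was not tested.

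These calls rested on a few libraries and on the spread shared by all groups. Pdk4 and Ucp2 each lost the call without untreated replicate 2 or 3 or EMPA + PFD replicate 2 or 3, when Pdk4 had 1.78, 2.30, 1.86 and 1.95 and Ucp2 1.13, 1.28, 0.95 and 1.25 on the log2 scale; the count was then 1 of 9. Angptl4 kept its call without any single library, with 1.79 to 2.09 when a library of these 2 groups was left out. When the 6 libraries of the 2 groups were fitted alone, 0 of 9 passed in edgeR's test, and Angptl4 had 1.96 with adjusted p = 0.0539, against a range of 1.01e-05 to 0.061 over its alternatives. Without untreated replicate 1, 5 of 9 passed, Acot1 and Cpt1a being added with 2.29 and 1.05. With the term for the Y-linked transcripts, which HFpEF replicate 2 sets against HFpEF replicates 1 and 3, Angptl4 had 3.33 (adjusted p = 0.0289), Pdk4 3.92 (0.0527, range over alternatives 0.00252 to 0.183) and Ucp2 1.96 (0.068, range 0.00248 to 0.131). With the same term Plin2 had 1.42 (adjusted p = 0.0289, range 0.0289 to 0.398), its HFpEF levels being 97.5 CPM in replicate 2 and 193 and 176 CPM in the others, while Ucp3 had 0.42 (0.870, range 0.00783 to 0.870) and Acot1 0.52 (0.816, range 0.00266 to 0.816). An alternative chosen after seeing the data left out the 3 libraries with over 100 CPM of the atrial gene Sln (control 9w replicates 1 and 3 and untreated replicate 2), and then 0 of 9 passed, with 2.06 (adjusted p = 0.061) for Angptl4 and 1.78 (0.183) for Pdk4.

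Each drug alone was compared with untreated disease in 2 libraries against 3. Of all 12388 genes 1069 had an unadjusted p under 0.05 in edgeR's test for EMPA and 646 for PFD. Over the alternatives all genes called ran from 0 to 51 for EMPA and from 0 to 5 for PFD. In EMPA 0 of 9 passed in edgeR's test, where 0.0404% of all genes did, with 1 at an unadjusted p under 0.05 and 1 called by both DESeq2 and voom. That gene was Angptl4, from 17.1 CPM to a mean of 58.0 CPM (SD 5.03, n = 2), a log2 fold change of 1.76 (SE 0.38, adjusted p = 0.123), which DESeq2 gave with adjusted p = 0.00515, over a range of 0.00515 to 0.606 in its alternatives. Without HFpEF replicate 2 it passed in edgeR's test (adjusted p = 0.0399), so the count was 1. Both EMPA libraries have the Y-linked transcripts and no untreated library does, and with the term for them, set by the same 1 library of HFpEF, Angptl4 had 3.11 and did not pass. The endothelial sum was 3767 and 2909 CPM in EMPA and the red cell sum 2320 and 447, neither overlapping with untreated. In PFD 0 of 9 passed, where 0.00807% of all genes did, with 3 at an unadjusted p under 0.05 and 0 called by DESeq2 or voom. The 3 were Angptl4 with 1.47 (SE 0.37), Pdk4 with 1.39 (SE 0.63) and Cpt1a with 0.57 (SE 0.19), with the same adjusted p of 0.786. Without PFD replicate 1 Angptl4 had 0.76. In PFD the endothelial sum was 3225 and 3401 CPM and the smooth muscle and pericyte sum 1004 and 1181, both below untreated, and the skeletal muscle sum was 4291 and 2775 CPM and the red cell sum 713 and 860.1, both above. The part of these lists in the values of either drug was not tested. Angptl4 was thus above every untreated library in all 7 drug-treated libraries, with 1.76, 1.47 and 1.97 for EMPA, PFD and their combination against the same 3 untreated libraries.

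What the combination had over each drug was tested directly. Of all 12388 genes 3794 had an unadjusted p under 0.05 in edgeR's test against EMPA and 1266 against PFD. For the interaction of the 2 drugs 1131 did. Over the alternatives all genes called ran from 7 to 1203 against EMPA. Against EMPA 0 of 9 passed in edgeR's test, where 3.44% of all genes did, with 3 at an unadjusted p under 0.05, 1 called by DESeq2 and 2 by voom, and Pdk4 had 1.69 (SE 0.68, adjusted p = 0.112). Without EMPA + PFD replicate 1, 2 of 9 passed. The cardiomyocyte and skeletal muscle sums were higher in every EMPA + PFD library than in both EMPA libraries, which had 52380 and 41550 CPM for the first list and 1526 and 2519 CPM for the second. The atrial, adipocyte, macrophage and monocyte, endothelial, and smooth muscle and pericyte sums were lower, and the part of these lists was not tested. Against PFD 0 of 9 passed, where 0.0% of all genes did, with 0 at an unadjusted p under 0.05 and 0 by DESeq2 and voom. Acot2 had the largest value there, 1.14 (SE 0.73, adjusted p = 0.630). The interaction of the 2 drugs passed for 0 of 9, where 0.00807% of all genes passed, with 1 at an unadjusted p under 0.05 and 0 by DESeq2 and voom. That gene was Angptl4 with −1.26 (SE 0.53, adjusted p = 0.504).

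Treated disease was then set against controls of week 9. With both drugs 7 of the 9 genes rose, where 12.1% of all genes passed in either direction. Acot1 and Acot2 had 3.61 each (SE 0.63 and 0.70, adjusted p = 0.00126 and 0.0022), Pdk4 3.48 (SE 0.63, adjusted p = 0.0016) and Angptl4 2.77 (SE 0.37, adjusted p = 0.000489). Ucp3 had 2.11 (SE 0.68, adjusted p = 0.0282), Ucp2 1.44 (SE 0.32, adjusted p = 0.00469) and Plin2 1.08 (SE 0.21, adjusted p = 0.00246). Plin5 had 1.76 (SE 0.69, adjusted p = 0.0619) and Cpt1a 0.32 (SE 0.17, adjusted p = 0.15). Plin5 passed by DESeq2 (adjusted p = 0.0247) and voom (0.000478), and in edgeR's test with only the groups compared (0.000483). It also passed in edgeR's test without control 5w replicate 1 or untreated replicate 2, over a range of 0.000478 to 0.228 in its alternatives. All 3 EMPA + PFD libraries lay above all 3 controls for each of the 7 and for Plin5. The share of all genes tested that were apart in this way was not counted. Acot1, Acot2, Pdk4, Angptl4 and Ucp2 kept the call in every alternative that could be run, Plin2 lost it without control 9w replicate 2, and Ucp3 without any 1 of the control 9w libraries or EMPA + PFD replicate 1 or 3. Ucp3 also lost it without the 3 libraries high in the atrial gene Sln, an alternative chosen after seeing the data that leaves 1 control 9w library, with 1.69 (adjusted p = 0.269 in edgeR's test, range over alternatives 3.40e-05 to 0.269). In EMPA + PFD the red cell sum was 143, 482 and 213 CPM and the mesothelial sum 65.3, 84.6 and 55.1, which lay below control 9w, as did the endothelial and the smooth muscle and pericyte sums, while the cardiomyocyte and skeletal muscle sums lay above it. Their part was not tested. With EMPA alone 1 of 9 passed, where 0.46% of all genes did: Angptl4 with 2.55 (SE 0.39, adjusted p = 0.00827), while Acot1 had 2.63 (SE 0.67, adjusted p = 0.0913). DESeq2 called 2 of the 9 and voom 5, and 3 passed when only the groups compared were fitted. Over the alternatives all genes called ran from 8 to 406. The call of Angptl4 was lost without control 9w replicate 1 or EMPA replicate 2, or without the 3 libraries high in Sln (2.30, adjusted p = 0.181, range over alternatives 7.99e-07 to 0.181), and the count was 2 without untreated replicate 1 or 2. The endothelial sum of EMPA, 3767 and 2909 CPM, lay below control 9w. Above control 9w lay its macrophage and monocyte sum, 703 and 629.5 CPM, lymphocyte sum, 66.5 and 41.8, smooth muscle and pericyte sum, 1236 and 3192, and skeletal muscle sum, 1526 and 2519. The part of these lists in the Angptl4 call was not tested.

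With PFD alone 3 of 9 passed against controls, where 0.783% of all genes did. Pdk4 had 2.72 (SE 0.65, adjusted p = 0.0499), Angptl4 2.27 (SE 0.39, adjusted p = 0.0272) and Plin2 1.01 (SE 0.23, adjusted p = 0.0485), while Acot1 had 2.76 (SE 0.66) at an adjusted p of 0.0501 in edgeR's test. These values lay at the threshold. No call held without control 9w replicate 1 or 2 or PFD replicate 1, and 5 of 9 passed without untreated replicate 2. With the replicate number as a block none held either in edgeR's test. Pdk4 then had 2.78 (adjusted p = 0.0695), Angptl4 2.22 (0.0533) and Plin2 1.08 (0.0586). The count was 1 without control 5w replicate 2 or 3, untreated replicate 3, either EMPA library, PFD replicate 2, or EMPA + PFD replicate 2 or 3. With the term for Y-linked transcripts, which the PFD libraries lack and the controls have and whose size HFpEF replicate 2 sets, 0 of 9 passed in edgeR's test, with 0.94 for Pdk4 (adjusted p = 0.691, range over alternatives 0.000701 to 0.691), 0.91 for Angptl4 (0.474, range 4.06e-05 to 0.474) and 0.09 for Plin2 (0.908, range 0.00031 to 0.908). Without the 3 libraries high in Sln 0 of 9 passed as well, with 2.33 (adjusted p = 0.173) for Pdk4, 2.01 (0.0905) for Angptl4 and 1.28 (0.0659) for Plin2. In the fit of all libraries without that term DESeq2 called 5 of the 9 and voom 7. Over the alternatives all genes called ran from 2 to 1027. In PFD the cardiomyocyte sum was 74960 and 82580 CPM, the skeletal muscle sum 4291 and 2775, the lymphocyte sum 41.6 and 64.9 and the liver sum 33.1 and 24.4, all above control 9w without overlap. The endothelial sum, 3225 and 3401 CPM, and the red cell sum, 713 and 860.1, lay below it, and the part of these lists was not tested.

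Against HFpEF, the diseased hearts of week 5 before any drug, 6 of the 9 were higher with both drugs, where 22.7% of all genes passed in either direction. These were Pdk4 with 4.13 (SE 0.65, adjusted p = 0.000473), Acot2 with 3.56 (SE 0.70, adjusted p = 0.00146), Acot1 with 3.26 (SE 0.60, adjusted p = 0.00106), Ucp3 with 2.56 (SE 0.70, adjusted p = 0.00872), Plin5 with 2.51 (SE 0.71, adjusted p = 0.0108) and Ucp2 with 1.37 (SE 0.32, adjusted p = 0.00411). Angptl4, which had risen in HFpEF, had 0.47 (SE 0.33, adjusted p = 0.248) and Cpt1a 0.72 (SE 0.17, adjusted p = 0.00391). The term for Y-linked transcripts sets EMPA + PFD against HFpEF replicate 2 alone, where Angptl4 had 1.51 (adjusted p = 0.0202, range over alternatives 0.0202 to 0.697) and Ucp3 with 1.93 and Plin5 with 2.49 no longer passed. Without HFpEF replicate 2 Angptl4 had 0.15. The cardiomyocyte sum was 80010, 113800 and 93720 CPM in EMPA + PFD against 13400, 25230 and 38880 CPM in HFpEF, and the skeletal muscle sum 4408, 2746 and 3924 CPM against 1364, 900.4 and 2381 CPM. Lower in EMPA + PFD were the fibroblast sum, 4873, 2191 and 4165 CPM against 18090, 10230 and 13410 CPM, and the macrophage and monocyte sum, 398, 395 and 594 CPM against 3659, 836 and 2150 CPM. The lymphocyte sum was 52.3, 27.3 and 55.0 CPM against 197, 73.0 and 133 CPM, the smooth muscle and pericyte sum 1080, 877 and 893 CPM against 2158, 1237 and 1387 CPM, and the red cell sum 143, 482 and 213 CPM against 1804, 1447 and 3973 CPM. None of these 7 sums overlapped between the groups, and their part was not tested. Over all 7 groups 8 of the 9 genes differed at an adjusted p under 0.05, where 50.3% of all genes did, and Plin5 did not, with adjusted p = 0.0809.

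The 2 EMPA + PFD libraries that carried the highest values differed from replicate 1 in other genes too, which were set beside Pdk4 after their values were seen. Their values for Pdk4, 1791 and 1673 CPM against 443, stood beside 94.0 and 90.3 CPM against 36.1 for Ppargc1a, which encodes the coactivator PGC-1alpha. Fkbp5, a well-known glucocorticoid target, measured 149 and 179 CPM against 59.3, and Zbtb16, another, 106 and 95.4 CPM against 10.1. Npas2, a partner of the clock protein CLOCK, measured 16.3 and 9.82 CPM against 49.9, and Per2, a repressor in the same loop, 141 and 185 CPM against 22.5. In untreated, Npas2 measured 50.0, 109.9 and 50.4 CPM and Per2 20.2, 45.8 and 29.4 CPM, so EMPA + PFD replicate 1 was close to untreated in both and replicates 2 and 3 were not. The 3 control 9w libraries also had Per2 high, at 239.7, 286 and 210.1 CPM, and Npas2 low, at 23.7, 19.2 and 24.6 CPM, with Pdk4 at only 93.3 to 153 CPM. When the tissue was taken in the day was not given in the sources used here, and the part of these genes in the members' values was not tested.

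Of 15 tested clock genes 3 rose and 1 fell in EMPA + PFD against untreated in edgeR's test, where DESeq2 called 5 and voom 8, with a median log2 fold change of 0.42. The largest of the calls was 2.16 (SE 0.67) for Ciart, a clock repressor. In untreated against control 9w 1 rose and 5 fell, with a median of −0.91, in control 9w against control 5w 6 rose, with a median of 0.92, and in HFpEF against control 5w 1 rose, with a median of 0.09. Of 11 glucocorticoid targets 2 rose in EMPA + PFD against untreated, Zbtb16 with 2.68 (SE 0.59) and Fkbp5 with 1.56 (SE 0.46), and the median was 0.14. In HFpEF against control 5w, where Angptl4 had its largest difference, 9 of the 11 glucocorticoid targets rose, with a median of 1.40 against 0.02 over all genes. Mt2A, a metallothionein, had 3.40 (SE 1.06), Errfi1, an inhibitor of EGF receptor signalling, 2.90 (SE 0.48) and Dusp1, a phosphatase of MAP kinases, 2.18 (SE 0.21). Mt2A ran from 2.48 to 96.9 CPM in HFpEF and overlapped with control 5w, at 0.942 to 5.89 CPM. Errfi1, at 109 to 606 CPM in HFpEF, and Dusp1 did not overlap between these groups. Fkbp5 measured 38.1, 45.5 and 44.0 CPM in control 5w and 169, 38.8 and 121 CPM in HFpEF. In control 9w against control 5w 7 of the 11 rose. In untreated against control 9w 0 passed in edgeR's test, with 1 called by DESeq2 and 3 by voom. In edgeR's test 7 of the 11 had an unadjusted p under 0.05 there, where 2259 of all 12388 genes did. The median of the 11 there was −0.89, against 1.70 in control 9w against control 5w. The part of these genes in the Angptl4 values was not tested.

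**Figure D3:**
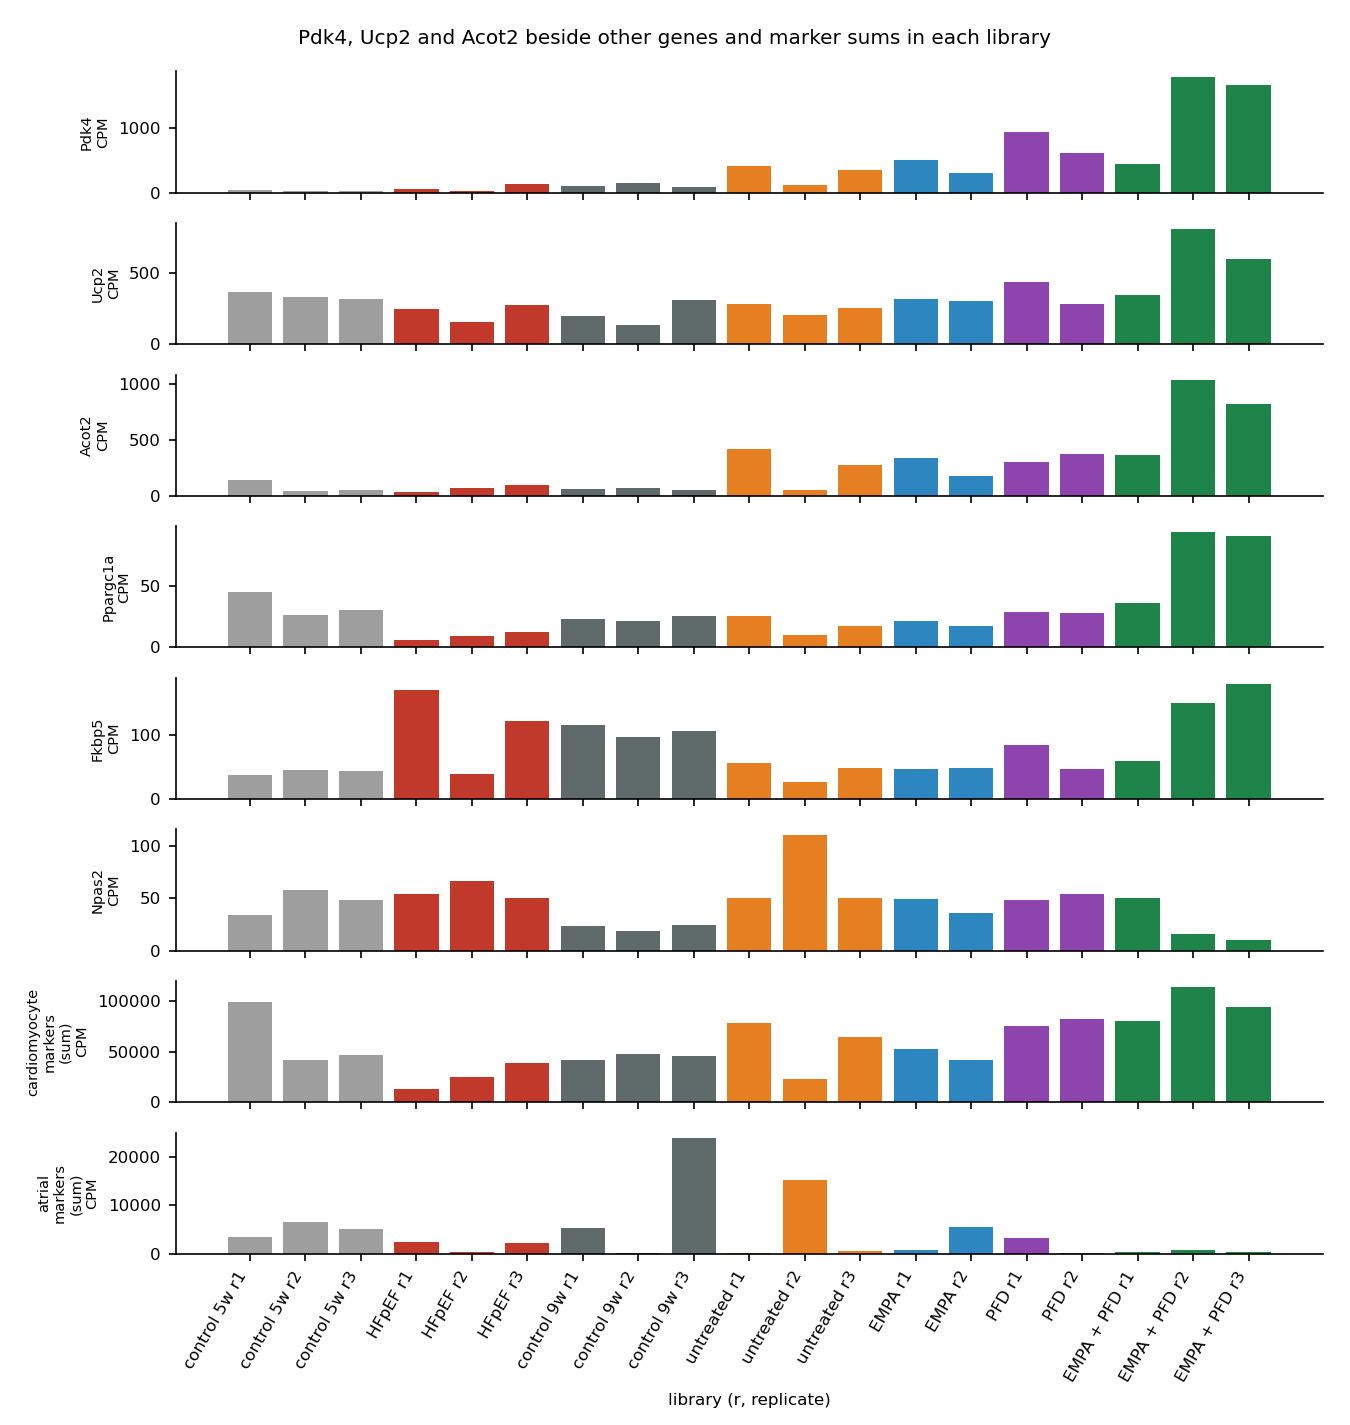
Normalized expression (CPM, linear axes from 0) in each of the 19 libraries of Pdk4, Ucp2, Acot2, Ppargc1a, Fkbp5 and Npas2, and the summed CPM of the cardiomyocyte and atrial markers; bars are single libraries coloured by group. EMPA + PFD replicates 2 and 3 have the highest Pdk4, at 1791 and 1673 CPM, and Npas2 at 16.3 and 9.82 CPM, and untreated replicate 2 has the lowest cardiomyocyte sum of its group with a high atrial sum.

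The receptors that act on the members were measured alongside. Ppara, the receptor itself, measured 38.8, 16.5 and 14.8 CPM in control 5w and a mean of 5.19 CPM (SD 1.84, n = 3) in HFpEF, each library below each control, and it fell by 2.17 on the log2 scale (SE 0.39, adjusted p = 0.00283 in edgeR's test) while Angptl4 rose. In EMPA + PFD it measured 20.9, 31.4 and 27.3 CPM against 16.7, 6.82 and 11.2 CPM in untreated and rose by 1.20 (SE 0.37, adjusted p = 0.047). Ppargc1a fell by 1.91 in HFpEF (SE 0.38) and rose by 2.04 in EMPA + PFD (SE 0.37). Pparg, the receptor best known from fat cells, rose by 1.38 in HFpEF (SE 0.30). Ppard, the widely expressed relative, had 0.05 and 0.58 and Rxra, the partner receptor, −0.33 and 0.19, and neither passed in these 2 comparisons. Of 21 tested receptors and coregulators 1 rose and 2 fell in HFpEF against control 5w, with a median of −0.30, and 3 rose in EMPA + PFD against untreated, with a median of 0.30, Lpin1 being the third with 1.72 (SE 0.37). DESeq2 called 4 of the 21 and voom 3 in HFpEF, and 5 and 4 in EMPA + PFD. In both comparisons the cardiomyocyte sum moved in the same direction as Ppara and Ppargc1a, without overlap between the groups. Its part in these values was not tested.

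Of 41 other known PPAR-alpha targets tested 4 rose and 2 fell in HFpEF against control 5w in edgeR's test, with 8 called by each of DESeq2 and voom and a median of −0.30. Txnip, a binding partner of thioredoxin, rose by 1.91 (SE 0.26), while Acsl1, which activates long-chain fatty acids, fell by 1.62 (SE 0.53). In EMPA + PFD against untreated 7 rose in edgeR's test, with 15 called by DESeq2, 14 by voom and a median of 1.04 against −0.03 over all genes. Hadhb, the beta subunit of the mitochondrial trifunctional protein, rose by 1.73 (SE 0.52) and Pnpla2, the triglyceride lipase of droplets, by 1.67 (SE 0.49). Of 10 genes of the carnitine shuttle 0 passed in HFpEF against control 5w in edgeR's test, with 2 at an unadjusted p under 0.05 and 0 called by DESeq2 or voom. In EMPA + PFD against untreated 0 passed, with 6 at an unadjusted p under 0.05 and 3 called by each of DESeq2 and voom. Of all 12388 genes 4436 and 4055 had an unadjusted p under 0.05 in edgeR's test in these 2 comparisons. Cpt1b, the muscle form beside Cpt1a, had −0.96 (SE 0.46, adjusted p = 0.144) and 1.21 (SE 0.46, adjusted p = 0.0871). The cardiomyocyte sum was lower in every HFpEF library than in every control 5w library. It was higher in every EMPA + PFD library than in every untreated one, and its part in these lists was not tested.

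Around Pdk4, 9 of 13 tested genes of pyruvate dehydrogenase and its import and control fell in HFpEF against control 5w in edgeR's test, with 9 called by DESeq2, 4 by voom and a median of −1.28. Pdpr, the regulatory subunit of the phosphatase, fell by 1.90 (SE 0.25), Pdk2, the sister kinase, by 1.72 (SE 0.42) and Dlat, the core acetyltransferase, by 1.62 (SE 0.41), while Pdk4 itself had 1.36. In EMPA + PFD against untreated 4 of the 13 rose, with 5 called by DESeq2, 4 by voom and a median of 0.97, among them Pdpr by 1.42 (SE 0.24), Dlat by 1.31 (SE 0.41) and Pdp1, the catalytic phosphatase subunit, by 1.14 (SE 0.25). The sum of the cardiomyocyte markers was lower in each HFpEF library than in each control 5w library and higher in each EMPA + PFD library than in each untreated one, and its part in these values was not tested. Of 8 other thioesterases 2 fell in HFpEF in edgeR's test, Acot11 by 1.34 (SE 0.34) and Them4 by 1.23 (SE 0.33), with 2 called by DESeq2 and 0 by voom, and 0 passed in EMPA + PFD against untreated in edgeR's test, with 3 at an unadjusted p under 0.05 and 0 called by DESeq2 or voom. Of all 12388 genes 4055 had an unadjusted p under 0.05 in edgeR's test of EMPA + PFD against untreated.

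Of 16 tested lipid droplet and lipase genes 2 rose in HFpEF, Lipe, the hormone-sensitive lipase, by 1.92 (SE 0.34) and Mgll, the monoglyceride lipase, by 1.02 (SE 0.32). In EMPA + PFD against untreated 4 of the 16 rose, among them Pnpla2 and Lpin1 above and Dgat2, which makes triglyceride, by 1.57 (SE 0.47). DESeq2 called 2 of the 16 and voom 4 in HFpEF against control 5w, and 4 and 7 in EMPA + PFD against untreated. On the axis of lipoprotein lipase, which Angptl4 inhibits, 2 of 10 tested genes rose in HFpEF: Gpihbp1, the anchor of the lipase on capillaries, by 1.89 (SE 0.38) and Fabp4 by 1.42 (SE 0.45). In EMPA + PFD against untreated, where Angptl4 rose, 0 of the 10 passed in edgeR's test, with 1 at an unadjusted p under 0.05 and 0 called by DESeq2 or voom. Of 6 other uncoupling proteins and nucleotide or phosphate carriers, Slc25a30 fell by 1.20 in HFpEF (SE 0.27) and rose by 1.57 in EMPA + PFD (SE 0.27), as the 1 gene of the 6 that passed in edgeR's test in each comparison. In HFpEF against control 5w 3 of the 6 had an unadjusted p under 0.05, with 2 called by DESeq2 and 0 by voom, and in EMPA + PFD against untreated 1 did, with 1 called by each of DESeq2 and voom. Of all 12388 genes 4436 and 4055 had an unadjusted p under 0.05 in edgeR's test in these 2 comparisons. The part of the cardiomyocyte sum in the values of these lists was not tested.

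The genes most like each member over the 19 libraries were found by the root mean square difference of log2 CPM, each gene being centred on its own mean, among the 12388 tested genes. Plin5 had the closest match of the 9, Fabp3, the heart fatty acid binding protein, at 0.141 against its own root mean square of 1.15. Acot2 was closest to Decr1 at 0.465, Acaa2 at 0.482 and Acadm at 0.518, and Acot1 to Decr1 at 0.553 and to Acot2 at 0.567. Pdk4 was closest to Acsm5 at 0.773, with Acot1 at 0.823 and Acot2 at 0.888 next, against its own 1.92. Ucp3 was closest to Aqp7 at 0.755 against its own 1.73, Ucp2 to Cpeb4 at 0.23 against 0.584, Cpt1a to Abcd3 at 0.21 against 0.453 and Plin2 to Cyp51 at 0.22 against 0.475. Angptl4 had no close match: its nearest gene, Sik1, was at 1.18 against its own 1.94. Among the 9, Acot1 and Acot2 were at 0.567, against 1.56 and 1.52 of their own, and Acot2 and Plin5 at 0.673. The measure depends on each gene's own spread, so the differences of 0.473 to 0.715 among Ucp2, Cpt1a and Plin2, which vary little, do not show that these 3 are alike.

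The counts were made on rn6, and the positions given here are those of another build, GRCr8, in its RefSeq annotation. There Ucp3 and Ucp2 were neighbours, and so were Acot2 and Acot1. Plin5 lay beside Plin4, another perilipin. In GRCr8 Cpt1a was the only member overlapped by another annotated gene, LOC134483953. Whether the annotation used for the counting held that gene is not known. The strand setting was not given in the sources used here, so whether reads of the 2 were mixed cannot be told.

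PPAR-alpha binds with its partner to a direct repeat of a half-site with 1 base between, so the RefSeq promoters of the members, 250 bases before to 50 after the start, were searched on both strands. The table held 10 windows for the 9 members, Plin2 having 2. The full repeat AGGTCANAGGTCA was in 0 of the 10, and in 0.0538% of all 33469 promoters. With at most 2 differences allowed it was in 1 window, that of Ucp3, and in 3.77% of all promoters. The half-site AGGNCA was in 8 of the 10 windows, those of 7 members, and in 57.1% of all promoters, and it can lie inside the repeat. A match describes the letters only, and no match says only that they are not in this window. The 4 promoters below are those of the 3 genes that rose with the combined treatment and of Ucp3, which holds the near match; capitals mark half-sites on either strand and the near repeat. In GRCr8 they lie at chr4:34568280-34568579 on the minus strand for Pdk4, chr7:15258632-15258931 on the minus strand for Angptl4, chr1:164251123-164251422 on the plus strand for Ucp2 and chr1:164227660-164227959 on the plus strand for Ucp3.
Pdk4: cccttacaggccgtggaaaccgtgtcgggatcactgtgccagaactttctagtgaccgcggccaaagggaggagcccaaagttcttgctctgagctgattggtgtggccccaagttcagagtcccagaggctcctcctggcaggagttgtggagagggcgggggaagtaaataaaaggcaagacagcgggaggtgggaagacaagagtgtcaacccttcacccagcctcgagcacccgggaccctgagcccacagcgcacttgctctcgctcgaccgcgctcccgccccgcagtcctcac
Angptl4: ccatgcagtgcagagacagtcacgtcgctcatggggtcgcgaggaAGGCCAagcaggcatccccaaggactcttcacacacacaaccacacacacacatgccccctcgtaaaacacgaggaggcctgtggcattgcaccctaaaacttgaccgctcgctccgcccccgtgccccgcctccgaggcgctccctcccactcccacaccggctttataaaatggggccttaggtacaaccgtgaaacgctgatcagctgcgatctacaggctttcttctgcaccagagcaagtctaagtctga
Ucp2: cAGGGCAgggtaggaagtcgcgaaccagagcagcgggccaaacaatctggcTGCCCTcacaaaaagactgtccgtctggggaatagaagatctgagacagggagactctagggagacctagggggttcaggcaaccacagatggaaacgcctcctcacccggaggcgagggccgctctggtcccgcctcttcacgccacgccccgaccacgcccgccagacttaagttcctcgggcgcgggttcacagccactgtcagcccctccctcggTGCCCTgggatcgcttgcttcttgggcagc
Ucp3: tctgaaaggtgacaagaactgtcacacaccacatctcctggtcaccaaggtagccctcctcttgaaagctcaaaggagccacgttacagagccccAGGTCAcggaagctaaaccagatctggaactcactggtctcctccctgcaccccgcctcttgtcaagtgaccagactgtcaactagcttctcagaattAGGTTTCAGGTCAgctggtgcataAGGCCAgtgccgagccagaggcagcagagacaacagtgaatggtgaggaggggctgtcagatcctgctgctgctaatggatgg
The near match of Ucp3, AGGTTTCAGGTCA, begins 57 bases before the start, and the window holds 3 half-sites, as does that of Ucp2. The Angptl4 window holds 1 half-site and the Pdk4 window 0.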

How the data were processed

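Counts per gene symbol were used from 1 file per library, 19 in all. Per the labels and the study's methods, the authors trimmed reads with Trim Galore, checked them with FastQC, aligned them to rn6 with HISAT2 and deposited raw counts made with htseq-count; versions, strand and overlap settings and the annotation release were not given in the sources used here. The authors left out 1 EMPA and 1 PFD sample for corrupted files. From these counts, edgeR 4.0.16 in R 4.3.3 made 1 fit of 7 groups (filterByExpr, TMM scaling, quasi-likelihood F test), with Benjamini-Hochberg adjustment over 12388 genes, and all adjusted p-values are from that test unless DESeq2 1.42.0 or limma 3.58.1 (voom with quality weights) is named. CPM use TMM-scaled library sizes. The lowest member value rested on 4 counts. The fits were tested on simulated data, and the outcome is not given here. Alternatives were 2 other scalings, 2 other filters, the 2 other tools, a fit of only the groups compared, adjusted p alone, a replicate block, a term for Y-linked transcripts and leaving out each library. The 9 members and the lists of other genes were chosen with earlier results of these data known. Of each list the text names up to 3 genes with the largest change among those called in EMPA + PFD against untreated and in HFpEF against control 5w, and always Ppara, Ppard, Pparg, Rxra, Ppargc1a and Cpt1b; 1 gene that this rule names is not reported here.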

Additional observations from a re-analysis of the deposited data

Results flagged for a closer look

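The effect of disease differed between the weeks for 2 of the 9 genes by the interaction test, where 12.0% of all genes passed. For Angptl4 the effect at week 9 minus that at week 5 was −4.564 on the log2 scale (SE 0.56, adjusted p = 0.000545), from 5.36 at week 5 to 0.80 at week 9. For Cpt1a it was −1.228 (SE 0.24, adjusted p = 0.00463), from 0.60 to −0.63. Both calls were kept with a term for Y-linked transcripts, which differ between the groups too, though that term rests on HFpEF replicate 2 against replicates 1 and 3. The groups also differed in glucocorticoid targets and clock genes, whose part was not tested.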

How the results depend on the processing

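Over 29 to 30 alternatives for each of 59 fold changes of members, 1598 of 1764 values kept their direction and their side of the threshold, 93 no longer passed, 69 newly passed and 4 reversed, and the causes were not tested. The reversals were of changes that had not passed: with the Y-linked term, which HFpEF replicate 2 alone sets against HFpEF replicates 1 and 3, Pdk4 had −0.02174 in HFpEF against control 5w and −0.4428 in untreated against control 9w, where Angptl4 had −0.5605, and by voom Plin5 had 0.178 in HFpEF against control 5w.

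The count of members called moved by over 1.5 times as follows. By DESeq2 it was 2 in untreated against control 9w, 4 in untreated against HFpEF, 1 in EMPA against untreated, 1 in EMPA + PFD against EMPA, 2 in EMPA against control 9w and 5 in PFD against control 9w. By voom it was 3, 6, 1, 2, 5 and 7 in these comparisons in that order, 3 in HFpEF against control 5w, 6 in EMPA + PFD against untreated and 4 for the disease by week interaction. With only the groups compared it was 0 in EMPA + PFD against untreated, 1 in EMPA + PFD against EMPA, 3 in EMPA and 7 in PFD against control 9w. With no filter it was 1 in PFD against control 9w, and on adjusted p alone 2 in HFpEF against control 5w. With the Y-linked term it was 0 in PFD against control 9w and 1 in untreated against HFpEF. Without the 3 libraries high in atrial genes, chosen after seeing the data and leaving 1 control 9w library assumed to vary like the others, it was 4 in untreated against HFpEF and 0 in EMPA + PFD against untreated and in EMPA and PFD against control 9w.

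Leaving out each library gave 1 to 2 in HFpEF against control 5w (2 without control 5w or HFpEF replicate 1), 0 to 2 in untreated against control 9w, 2 to 5 in control 9w against control 5w (2 without control 5w replicate 2 or 3), 0 to 5 in untreated against HFpEF, 1 to 5 in EMPA + PFD against untreated, 0 to 1 in EMPA against untreated (1 without HFpEF replicate 2), 0 to 2 in EMPA + PFD against EMPA, 0 to 2 in EMPA and 0 to 5 in PFD against control 9w, and 2 to 4 for the disease by week interaction (4 without untreated replicate 2).

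Libraries with the same replicate number did not deviate together: over 52 pairs the correlation ran from −0.532 to 0.493, and 11 were over 0.1. With the number as a replicate block the count in PFD against control 9w went from 3 to 0, and no other count of members moved by over 1.5 times. The filter of 10 counts in every library dropped Acot1. Over these alternatives all genes called ran from 429 to 2478 in HFpEF against control 5w, 2 to 1037 in untreated against control 9w, 1206 to 4276 in control 9w against control 5w, 1 to 1076 in untreated against HFpEF and 5 to 1501 in EMPA + PFD against untreated. In the other comparisons the count over all genes moved with the alternatives as well. The shares of all genes printed beside the members' counts are those of the main fit only. Upper quartile scaling moved the median log2 fold change of all genes by at most 0.112, in EMPA + PFD against HFpEF.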
